A study of Mus musculus with 6 samples.

Results

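The genes described here were 8 members of the glucocorticoid pathway among the 32285 features counted in every library: the receptor gene Nr3c1 and 7 genes that glucocorticoids are known to induce, Fkbp5, Hif3a, Per1, Zbtb16, Tsc22d3, Sgk1 and Errfi1. They were chosen by measured values of these same libraries. Fkbp5 in myeloid nuclei and Hif3a in fibroblasts had been found higher in the 21dpi_cKO library, and the question was whether all cell classes shared a response to stress hormone. All values from 21dpi_cKO against 21dpi_Ctrl, of any member, are therefore a description, and no test was made on them. Corticosterone itself was not measured in these samples.

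Glucocorticoids, in the mouse mainly corticosterone, are released by the adrenal gland under the control of the hypothalamus and pituitary, both around the clock and in response to stress or injury. They cross cell membranes and bind the receptor encoded by Nr3c1, which is present in most cell types of the brain, its coverings and its vessels and is held by Hsp90 and its co-chaperones until hormone arrives. The bound receptor enters the nucleus, where it raises genes such as Fkbp5 and Per1 in many cell types and lowers a set of inflammatory genes.

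Each library held nuclei from the dissected lesions of 1 male and 1 female mouse, 7 or 21 days post injury (dpi), after photothrombosis, in which light and a photosensitive dye clot the vessels of a cortical patch. The 6 groups had 1 library each. The 7dpi_Ctrl and 21dpi_Ctrl mice were wild type (WT) with no listed treatment. The 7dpi_ADWA11 and 21dpi_ADWA11 mice were WT and received ADWA11, an antibody that blocks integrin αvβ8 and with it the release of active TGFβ, from the day of injury and weekly after it. The 7dpi_cKO and 21dpi_cKO mice carried Col1a2(creER); Tgfbr2(flox), a tamoxifen-dependent Cre driven by a fibroblast collagen promoter that removes the TGFβ receptor gene Tgfbr2, and received tamoxifen before injury and at intervals after it. All mice shared the injury, its anaesthesia and analgesia, and were between 7 and 21 weeks old. For its conditional knockouts in general the study names several kinds of control, some induced with tamoxifen and some not, and the sources used here do not say which the Ctrl mice of this experiment were, nor the hour of collection. Genotype or treatment, library and the mice pooled in that library cannot be told apart, and no p-value was computed between groups.

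Promoter windows of 6 members were found in RefSeq for mouse build GRCm38.p6. The 3 windows shown are that of the only member with a full receptor site and those of Fkbp5 and Hif3a, the genes by which the set was chosen. The receptor is known to bind as a pair to an inverted repeat, written here as GNACANNNTGTNC, which reads the same on both strands and has 8 fixed letters of 13. Of 32851 windows of 300 bases, 250 before and 50 after a start site, 156 held these letters (0.475%). Among 15 windows of 6 members, 1 did: a window of Sgk1, whose site began 188 bases before the start and is printed in capitals. The half-site GNACA, or TGTNC on the other strand, stood in 86.4% of all windows and in 13 of the 15 member windows, so it does not set the members apart. No capitals are printed for Fkbp5 or Hif3a, whose windows held no full site.
Sgk1 (chr10:21993640-21993939, plus strand): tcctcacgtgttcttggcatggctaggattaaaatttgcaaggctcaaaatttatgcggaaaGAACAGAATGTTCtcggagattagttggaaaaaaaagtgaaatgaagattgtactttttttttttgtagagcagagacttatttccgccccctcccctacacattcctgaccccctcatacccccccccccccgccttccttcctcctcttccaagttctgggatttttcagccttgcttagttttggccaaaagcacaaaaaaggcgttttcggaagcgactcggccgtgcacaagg
Fkbp5 (chr17:28486100-28486399, minus strand): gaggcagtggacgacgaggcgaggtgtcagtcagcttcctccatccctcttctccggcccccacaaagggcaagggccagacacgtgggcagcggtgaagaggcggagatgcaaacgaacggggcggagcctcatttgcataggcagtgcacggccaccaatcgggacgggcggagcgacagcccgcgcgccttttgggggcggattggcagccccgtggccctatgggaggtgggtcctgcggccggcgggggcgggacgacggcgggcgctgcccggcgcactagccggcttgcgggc
Hif3a (chr7:17062378-17062677, minus strand): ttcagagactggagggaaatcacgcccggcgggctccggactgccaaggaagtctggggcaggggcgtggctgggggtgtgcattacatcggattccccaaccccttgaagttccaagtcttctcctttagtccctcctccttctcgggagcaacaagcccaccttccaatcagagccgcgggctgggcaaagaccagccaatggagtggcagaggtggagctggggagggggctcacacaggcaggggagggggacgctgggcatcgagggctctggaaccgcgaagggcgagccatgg
A match is a run of letters and not a measured binding site, and known receptor sites of several of these genes lie in introns or far upstream, outside these windows.

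In the mm10 annotation the member genes lay on 8 different chromosomes, from Errfi1 on chromosome 4 (150853919 to 150868892) and Hif3a on chromosome 7 (17031507 to 17062427) to Tsc22d3 on chromosome X (140539528 to 140600659). Fkbp5 spanned 28399094 to 28517527 on chromosome 17, Per1 69095217 to 69109960 on chromosome 11, Zbtb16 48654297 to 48836222 on chromosome 9 and Sgk1 21882184 to 21999903 on chromosome 10. Counts covered whole gene bodies, introns included, because the RNA came from nuclei.

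The values are unique molecular identifiers (UMIs) of a gene, summed over the nuclei of a cell class in a library and given per 1000000 UMIs of that sum (CPM). A 95% counting interval follows key values in parentheses and covers counting error only, neither the spread between mice nor that between libraries. Of 67360 barcodes, 61166 nuclei were kept, from 64798965 to 140310354 UMIs per library. Classes were named from marker genes, and 11 with at least 50 nuclei in both libraries of at least 1 comparison were used: myeloid, dendritic, T cell, fibroblast, arachnoid fibroblast, mural, endothelial, astrocyte, oligodendrocyte precursor, oligodendrocyte and a neuron cluster numbered 14. Neuron clusters 12 and 19 had that many in both cKO libraries but not in any other. Only the neuron cluster with that many in 21dpi_Ctrl was used, so clusters 12 and 19 were left out of the counts, also between the days in cKO. Pairs of libraries shared 21 to 61 barcodes. In the cKO libraries RNA of neurons was found in other classes: 7 neuron markers together held 61.4 to 237 CPM in the 10 classes other than neurons in 21dpi_cKO against 5.35 to 82.1 in 21dpi_Ctrl, and 195 to 448 CPM in 6 such classes in 7dpi_cKO against 6.15 to 62.3 CPM in 10 classes in 7dpi_Ctrl.

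Fkbp5, the Hsp90 co-chaperone that lowers the receptor's affinity for hormone and is itself raised by it, passed 2-fold in more classes than any other member in that comparison. It was at least 2-fold higher in 21dpi_cKO than in 21dpi_Ctrl in 10 of 11 classes, with a median log2 ratio of 1.70 over the 11. Myeloid nuclei, which include microglia and infiltrating macrophages, held 141, 107 and 325 CPM at 7 dpi (Ctrl, ADWA11 and cKO) and 131, 34.7 and 901 CPM at 21 dpi. The 21dpi_cKO value rested on 11238 UMIs and stood 6.90-fold above 21dpi_Ctrl, a log2 ratio of 2.79 (2.72 to 2.86). The mice differed in size, with 1505 CPM in 21dpi_cKO against 147 CPM in 21dpi_Ctrl between the females and 227 against 104 CPM between the males. The 4 libraries without the deletion ranged from 34.7 to 140.5 CPM, and 7dpi_cKO lay above all of these.

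Fibroblasts, the cells in which the Cre is active, also had their highest level in 21dpi_cKO. Their Fkbp5 was 94.1, 155 and 175 CPM at 7 dpi (Ctrl, ADWA11 and cKO) and 227, 249.9 and 796 CPM at 21 dpi, a log2 ratio of 1.81 (1.75 to 1.87) for 21dpi_cKO against 21dpi_Ctrl. Arachnoid fibroblasts, of the middle meningeal layer, had 179 and 309.6 CPM at 7 dpi (Ctrl and ADWA11) and 416, 372 and 1353 CPM at 21 dpi (Ctrl, ADWA11 and cKO), and 21dpi_cKO was the highest Fkbp5 level of any class and library compared. Classes without the Cre driver as their known site of activity were also high in 21dpi_cKO. Astrocytes held 112, 115 and 158 CPM at 7 dpi (Ctrl, ADWA11 and cKO) and 90.7, 50.99 and 340.2 CPM at 21 dpi. Oligodendrocytes, the myelinating glia, held 57.1, 51.5 and 242 CPM at 7 dpi (Ctrl, ADWA11 and cKO) and 57.8 and 417 CPM at 21 dpi (Ctrl and cKO), which gave the widest log2 ratio at 21 dpi, 2.85 (2.43 to 3.31). Among vessel cells, endothelial nuclei stood at 107 and 122 CPM at 7 dpi (Ctrl and ADWA11) and 151, 121 and 455 CPM at 21 dpi (Ctrl, ADWA11 and cKO), with 21dpi_cKO above each other library. Mural nuclei, the pericytes and smooth muscle of those vessels, had 109.6 and 79.4 CPM at 7 dpi (Ctrl and ADWA11) and 139, 92.6 and 338 CPM at 21 dpi (Ctrl, ADWA11 and cKO).

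The immune classes other than myeloid also had their highest Fkbp5 in 21dpi_cKO. T cell nuclei held 183 and 196 CPM at 7 dpi (Ctrl and ADWA11) and 199, 194 and 488 CPM at 21 dpi (Ctrl, ADWA11 and cKO), a narrower log2 ratio of 1.30 (1.03 to 1.57). The direction turned between the mice, with 717 CPM in 21dpi_cKO against 212 CPM in 21dpi_Ctrl between the females and 151 against 190 CPM between the males. Dendritic nuclei held 73.7, 96.1 and 129.9 CPM at 7 dpi (Ctrl, ADWA11 and cKO) and 139.5, 85.4 and 508 CPM at 21 dpi. Oligodendrocyte precursors held 83.6, 81.7 and 133 CPM at 7 dpi (Ctrl, ADWA11 and cKO) and 88.2 and 179 CPM at 21 dpi (Ctrl and cKO), a log2 ratio of 1.02 (0.70 to 1.35) that only just passed 2-fold. Neuron cluster 14 was the exception, at 19.6 and 53.00 CPM at 7 dpi (Ctrl and cKO) and 88.2 and 86.1 CPM at 21 dpi, a log2 ratio of -0.03 (-0.49 to 0.44) at 21 dpi. The 2 values at 21 dpi in this cluster could not be separated by counting error. At 7 dpi, with both mice summed, Fkbp5 was above Ctrl in all 7 classes compared in the cKO library. The log2 ratios ran from 0.50 in astrocytes to 2.09 in oligodendrocytes. In 3 of the classes Fkbp5 was at least 2-fold higher: myeloid, oligodendrocyte and neuron cluster 14. Between the females it was 434 against 154, 269 against 61.4 and 58.4 against 20.1 CPM in these classes. Between the males it was 169 against 129, 68.3 against 97.3 and 28.7 against 22.2 CPM, under 2-fold higher in each. Each Ctrl mouse had under 50 nuclei in the last 2 classes. In astrocytes the log2 ratio was 1.33 between the females and -1.39 between the males. In neuron clusters 12 and 19, which only the cKO libraries held in number, Fkbp5 was 56.5 and 71.4 CPM at 7 dpi and 61.8 and 94.1 CPM at 21 dpi.

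**Figure D1:**
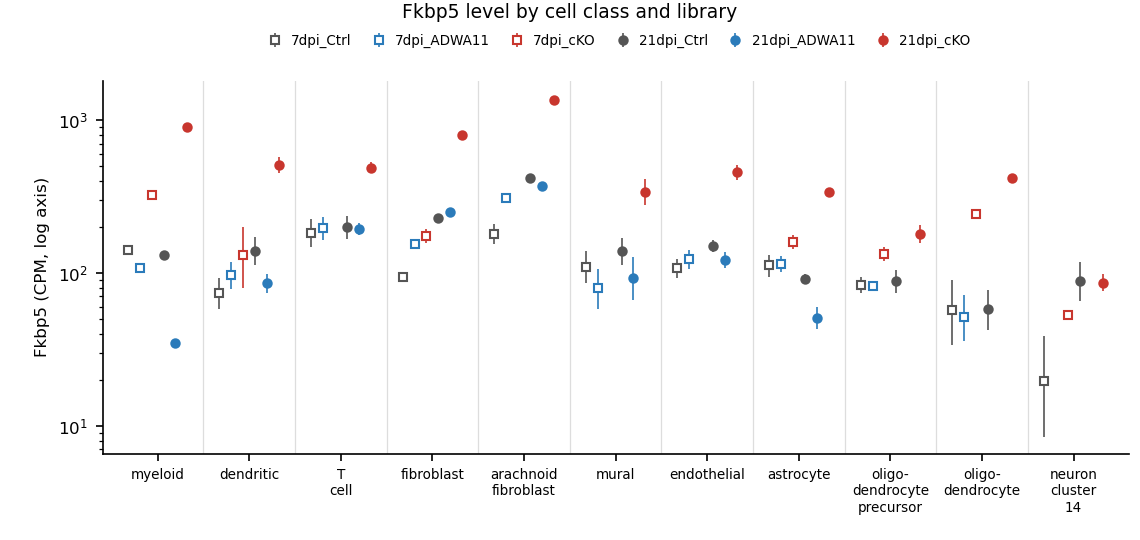
Fkbp5 in CPM (log axis) for each cell class and library, with 95% counting intervals as bars; squares are 7 dpi and circles 21 dpi. The 21dpi_cKO point is the highest in 10 of 11 classes, and in neuron cluster 14 it lies beside 21dpi_Ctrl.

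Hif3a, a hypoxia-inducible factor subunit that glucocorticoids also induce, was at or below 22.3 CPM in the 4 libraries without the deletion in every class but mural nuclei, and was higher in the cKO libraries in glia, stroma and vessels. Fibroblasts held 2.37, 6.77 and 13.96 CPM at 7 dpi (Ctrl, ADWA11 and cKO) and 3.802, 7.06 and 99.9 CPM at 21 dpi, a log2 ratio of 4.72 (4.41 to 5.04) at 21 dpi. At 7 dpi the fibroblast ratio was 2.56. It was 1.53 over the fibroblast sub-clusters with at least 20 nuclei in both libraries, each given the same weight in both. Arachnoid fibroblasts held 7.18 and 10.9 CPM at 7 dpi (Ctrl and ADWA11) and 4.35, 6.09 and 131 CPM at 21 dpi (Ctrl, ADWA11 and cKO). Astrocytes held 1.58, 13.3 and 163 CPM at 7 dpi (Ctrl, ADWA11 and cKO) and 22.3, 6.97 and 181 CPM at 21 dpi, so that both cKO libraries were high in this class. In oligodendrocytes the values were 0, 6.06 and 55.6 CPM at 7 dpi (Ctrl, ADWA11 and cKO) and 2.51 and 171 CPM at 21 dpi (Ctrl and cKO), where the 7dpi_Ctrl library had 0 UMIs and a floor of 3 counts puts 7dpi_cKO at least 5.84-fold higher. Oligodendrocyte precursors held 0.284, 1.34 and 12.5 CPM at 7 dpi (Ctrl, ADWA11 and cKO) and 3.34 and 87.9 CPM at 21 dpi (Ctrl and cKO). Endothelial nuclei held 1.06 and 0.640 CPM at 7 dpi (Ctrl and ADWA11) and 5.32, 2.38 and 77.9 CPM at 21 dpi (Ctrl, ADWA11 and cKO). Every one of these classes had its highest Hif3a in 21dpi_cKO. Mural nuclei had the smallest ratio, with 16.5 and 18.1 CPM at 7 dpi (Ctrl and ADWA11) and 24.6, 50.9 and 65.8 CPM at 21 dpi (Ctrl, ADWA11 and cKO). Myeloid, dendritic and T cell nuclei and neuron cluster 14 stayed at or below 7.21 CPM in every library, although the myeloid log2 ratio at 21 dpi was 4.65 (3.24 to 6.56), from 90 UMIs in 21dpi_cKO and 4 in 21dpi_Ctrl. In the 8 classes with at least 20 UMIs over both libraries, Hif3a was at least 2-fold higher in 21dpi_cKO in all 8 (median log2 ratio over the 8 tested classes 4.68). Only fibroblasts and astrocytes reached 20 UMIs in 21dpi_Ctrl alone, so the other 6 entered through the counts of 21dpi_cKO.

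Zbtb16, which encodes the zinc-finger repressor PLZF, was higher in 21dpi_cKO than in 21dpi_Ctrl in all 11 classes and at least 2-fold so in 9. In fibroblasts it stood at 18.7, 43.8 and 138 CPM at 7 dpi (Ctrl, ADWA11 and cKO) and 89.2, 100.1 and 821 CPM at 21 dpi, a log2 ratio of 3.20 (3.13 to 3.28) at 21 dpi. Its 7 dpi fibroblast ratio of 2.88 was 2.02 with the same sub-cluster weights. The stromal and vessel classes followed: arachnoid fibroblasts held 99.5 and 122 CPM at 7 dpi (Ctrl and ADWA11) and 155, 144 and 716 CPM at 21 dpi (Ctrl, ADWA11 and cKO). Endothelial nuclei held 178 and 165 CPM at 7 dpi (Ctrl and ADWA11) and 245, 103 and 747 CPM at 21 dpi (Ctrl, ADWA11 and cKO). Mural nuclei held 90.1 and 70.4 CPM at 7 dpi (Ctrl and ADWA11) and 155, 71.8 and 655 CPM at 21 dpi (Ctrl, ADWA11 and cKO). In each of these classes 21dpi_cKO was the highest library. Oligodendrocytes were high in both cKO libraries, at 193, 195 and 719 CPM at 7 dpi (Ctrl, ADWA11 and cKO) and 191 and 854 CPM at 21 dpi (Ctrl and cKO). In astrocytes the order was different: 173, 259 and 236 CPM at 7 dpi (Ctrl, ADWA11 and cKO) and 97.6, 54.3 and 249 CPM at 21 dpi, with 7dpi_ADWA11 the highest. T cell nuclei, in which PLZF is known as a factor of innate-like T cells, were also ordered differently, with 357 and 121 CPM at 7 dpi (Ctrl and ADWA11) and 114, 47.1 and 191 CPM at 21 dpi (Ctrl, ADWA11 and cKO). Myeloid nuclei held 7.46, 9.11 and 14.4 CPM at 7 dpi (Ctrl, ADWA11 and cKO) and 13.5, 13.9 and 41.1 CPM at 21 dpi.

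Per1, a repressor of the circadian clock whose promoter also responds to glucocorticoid, differed unequally between the mice. It was above 21dpi_Ctrl in all 11 classes of 21dpi_cKO and at least 2-fold so in 9, with log2 ratios between 0.42 in oligodendrocytes and 1.74 in myeloid nuclei. Between the females alone it was at least 2-fold higher in 5 of 5 classes compared (fibroblasts 1.92 on the log2 scale), and between the males in 0 of 5, with 0.10 in fibroblasts, 0.15 in astrocytes and 0.63 in myeloid nuclei. Myeloid nuclei held 9.23, 9.57 and 20.3 CPM at 7 dpi (Ctrl, ADWA11 and cKO) and 11.99, 8.36 and 40.2 CPM at 21 dpi. Fibroblasts held 9.68, 9.84 and 20.9 CPM at 7 dpi (Ctrl, ADWA11 and cKO) and 17.3, 18.1 and 41.5 CPM at 21 dpi. Astrocytes held 11.9, 16.98 and 31.6 CPM at 7 dpi (Ctrl, ADWA11 and cKO) and 23.1, 13.6 and 47.6 CPM at 21 dpi. In these 3 classes 21dpi_cKO was the highest library and 7dpi_cKO was above the Ctrl library of its day. The myeloid ratio at 7 dpi, 1.14, was 0.86 with the same sub-cluster weights, under 2-fold. Dendritic nuclei held 14.4, 17.02 and 12.99 CPM at 7 dpi (Ctrl, ADWA11 and cKO) and 18.8, 17.5 and 50.8 CPM at 21 dpi and gave no higher value in 7dpi_cKO, a library with few UMIs of this gene in this class.

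**Figure D2:**
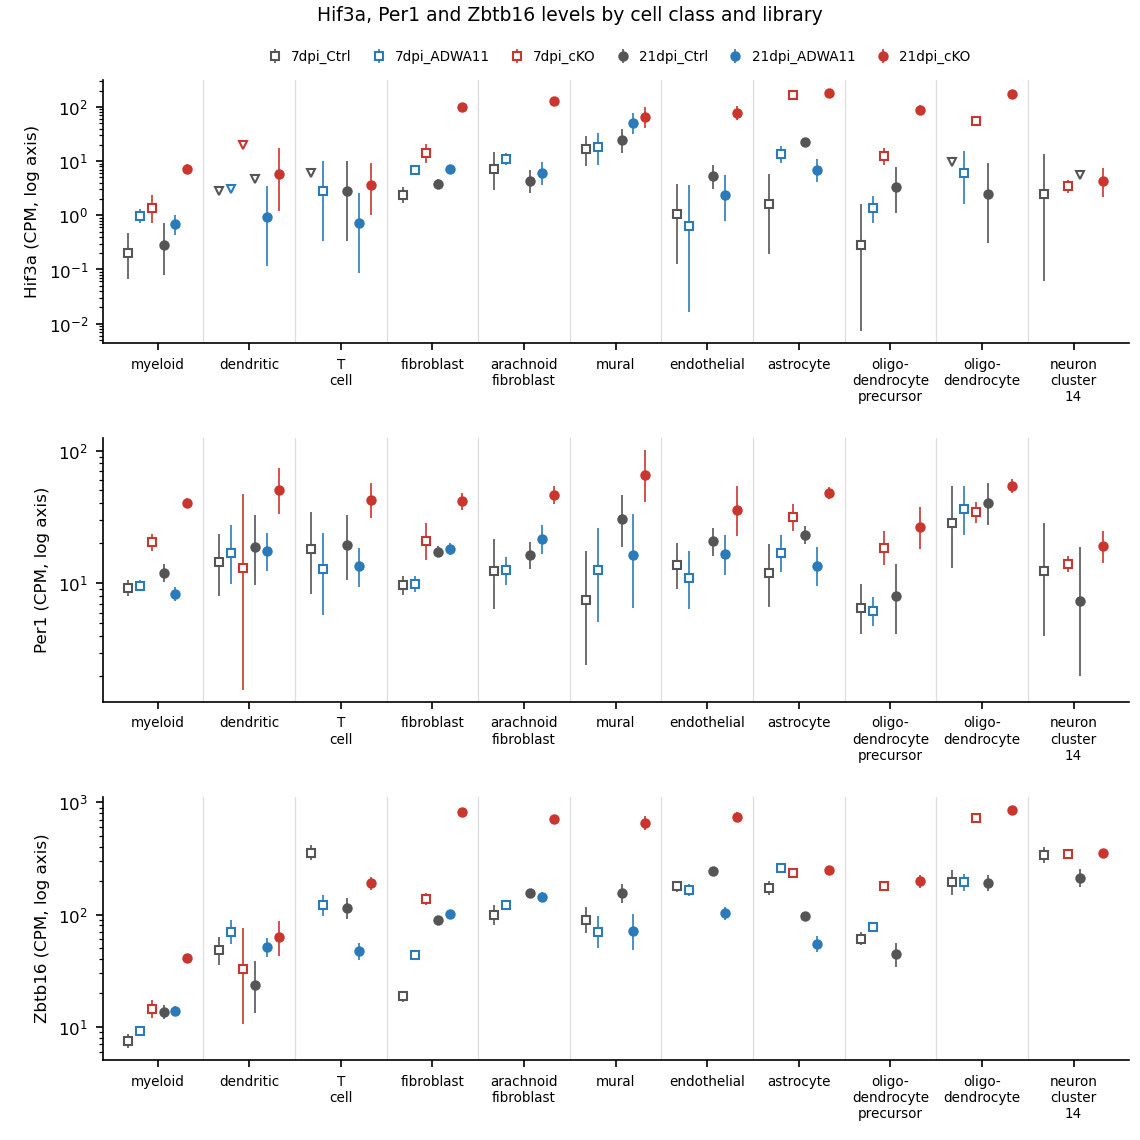
Hif3a, Per1 and Zbtb16 in CPM (log axis) for each cell class and library, with 95% counting intervals; squares are 7 dpi, circles 21 dpi, and an open triangle marks 0 UMIs, drawn at the floor of 3 counts. For Per1 the 21dpi_cKO point is highest in all 11 classes, and for Zbtb16 it is not the highest in astrocytes, dendritic nuclei or T cells.

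Sgk1, a kinase named for its induction by serum and glucocorticoid, differed by class in direction. Oligodendrocytes held 28.5, 52.99 and 180.1 CPM at 7 dpi (Ctrl, ADWA11 and cKO) and 85.4 and 312 CPM at 21 dpi (Ctrl and cKO), a log2 ratio of 1.87 (1.52 to 2.24) at 21 dpi. Fibroblasts held 12.05, 11.3 and 16.6 CPM at 7 dpi (Ctrl, ADWA11 and cKO) and 15.3, 20.05 and 43.4 CPM at 21 dpi. Myeloid nuclei held 198, 97.7 and 276 CPM at 7 dpi (Ctrl, ADWA11 and cKO) and 235, 158 and 234 CPM at 21 dpi, nearly equal in 21dpi_Ctrl and 21dpi_cKO with both mice summed, while the log2 ratio was 0.32 between the females and -0.74 between the males. In dendritic nuclei 21dpi_cKO was the lowest library, with 98.5, 138 and 117 CPM at 7 dpi (Ctrl, ADWA11 and cKO) and 139.5, 131 and 64.5 CPM at 21 dpi. Over the 11 classes, 3 were at least 2-fold higher and 1 at least 2-fold lower in 21dpi_cKO.

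Tsc22d3, which encodes the glucocorticoid-induced leucine zipper GILZ, an inhibitor of inflammatory signalling, differed by class and by mouse between the 21 dpi libraries. With both mice summed, 0 of 11 classes were at least 2-fold higher in 21dpi_cKO and 2 were at least 2-fold lower, mural nuclei and neuron cluster 14, around a median log2 ratio of 0.10. Fibroblasts held 62.5, 56.02 and 49.4 CPM at 7 dpi (Ctrl, ADWA11 and cKO) and 223, 193 and 130.2 CPM at 21 dpi, with the cKO library the lowest of its day. Mural nuclei held 30.04 and 18.1 CPM at 7 dpi (Ctrl and ADWA11) and 79.6, 48.6 and 25.1 CPM at 21 dpi (Ctrl, ADWA11 and cKO). Astrocytes went the other way, with 6.34, 4.85 and 47.9 CPM at 7 dpi (Ctrl, ADWA11 and cKO) and 27.5, 19.4 and 47.3 CPM at 21 dpi, and the wide ratio at 7 dpi, 2.92 (1.89 to 4.17) on the log2 scale, set 109 against 8 UMIs. Between the females alone, told from the males by Xist and Y-linked transcripts, Tsc22d3 was at least 2-fold higher in 21dpi_cKO than in 21dpi_Ctrl in 3 of the 5 classes with at least 50 nuclei of every mouse, with log2 ratios of 1.27 in myeloid nuclei, 1.01 in T cells and 1.18 in astrocytes. Between the males the same ratios were -0.10, -1.79 and 0.47, the T cell value from 6 and 13 UMIs. Fibroblasts went the other way in both, by -0.34 between the females and -1.21 between the males, as did arachnoid fibroblasts.

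Errfi1, whose product MIG6 restrains the epidermal growth factor receptor, was also uneven. Fibroblasts held 89.6, 189 and 186 CPM at 7 dpi (Ctrl, ADWA11 and cKO) and 115, 121 and 224 CPM at 21 dpi, and mural nuclei 284 and 144 CPM at 7 dpi (Ctrl and ADWA11) and 580.4, 375 and 263 CPM at 21 dpi (Ctrl, ADWA11 and cKO). In fibroblasts both cKO libraries were above their Ctrl library, and in mural nuclei 21dpi_cKO was below. The 7 dpi fibroblast ratio was 1.05, and 0.99 with the same sub-cluster weights, under 2-fold. Across the 11 classes at 21 dpi none was at least 2-fold higher and 2 were at least 2-fold lower.

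The receptor gene Nr3c1, which hormone is known to lower through feedback in many cells, was detected in every class. It was below Ctrl in all 11 classes of 21dpi_cKO and in all 7 classes of 7dpi_cKO, by less than 2-fold in each. At 21 dpi the log2 ratios ran from -0.78 in neuron cluster 14 to -0.06 in dendritic nuclei (median -0.31), and at 7 dpi their median was -0.16. Myeloid nuclei held 309, 347 and 300.4 CPM at 7 dpi (Ctrl, ADWA11 and cKO) and 317, 307 and 292 CPM at 21 dpi. T cell nuclei held 498 and 473 CPM at 7 dpi (Ctrl and ADWA11) and 594, 545 and 382 CPM at 21 dpi (Ctrl, ADWA11 and cKO). By mouse, Nr3c1 was lower in cKO between the females in 5 of 5 classes at 21 dpi and 4 of 4 at 7 dpi, and between the males in 3 of 5 and 1 of 4. Among males the log2 ratio at 21 dpi was 0.05 in myeloid nuclei and 0.18 in arachnoid fibroblasts, and at 7 dpi 0.02 in myeloid nuclei, 0.07 in fibroblasts and 0.13 in precursors. The 6 libraries spanned a narrow range in myeloid nuclei and a wider one in T cells.

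Counted over genes and classes together, 39 of 85 pairs of a member and a class (45.9%) were at least 2-fold higher in 21dpi_cKO than in 21dpi_Ctrl, where 6.83% of all pairs of gene and class with at least 20 UMIs were. Another 5 pairs were at least 2-fold lower (5.88%, against 7.77% of all pairs). Because the members were selected on this contrast, nothing is read from that count. In the 7 dpi libraries, which the choice did not use, 19 of 53 member pairs were at least 2-fold higher in 7dpi_cKO than in 7dpi_Ctrl (35.8%, against 9.12% of all pairs) and 2 were lower (3.77%, against 9.04%). Of these 53 pairs, 37 reached 20 UMIs in 7dpi_Ctrl alone and 10 of the 37 were higher (27%, against 5.27% of all such pairs), so 9 of the 19 entered only through the counts of 7dpi_cKO, among them Hif3a in oligodendrocytes, precursors and astrocytes. Of the 19, 4 were of Hif3a, 4 of Per1, 3 each of Fkbp5, Zbtb16 and Errfi1, and 1 each of Tsc22d3 and Sgk1. Among male nuclei alone 12 of 35 pairs passed 2-fold in either direction at 21 dpi and 5 of 25 at 7 dpi, against 44 of 85 and 21 of 53 with both mice. Of all pairs of gene and class in male nuclei, 12.5% passed at 21 dpi and 14.1% at 7 dpi, beside 34.3% and 20% of the member pairs. Each of these percentages covers 1 library against 1 library, and the pairs of a library are not replicates of one another.

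**Figure D3:**
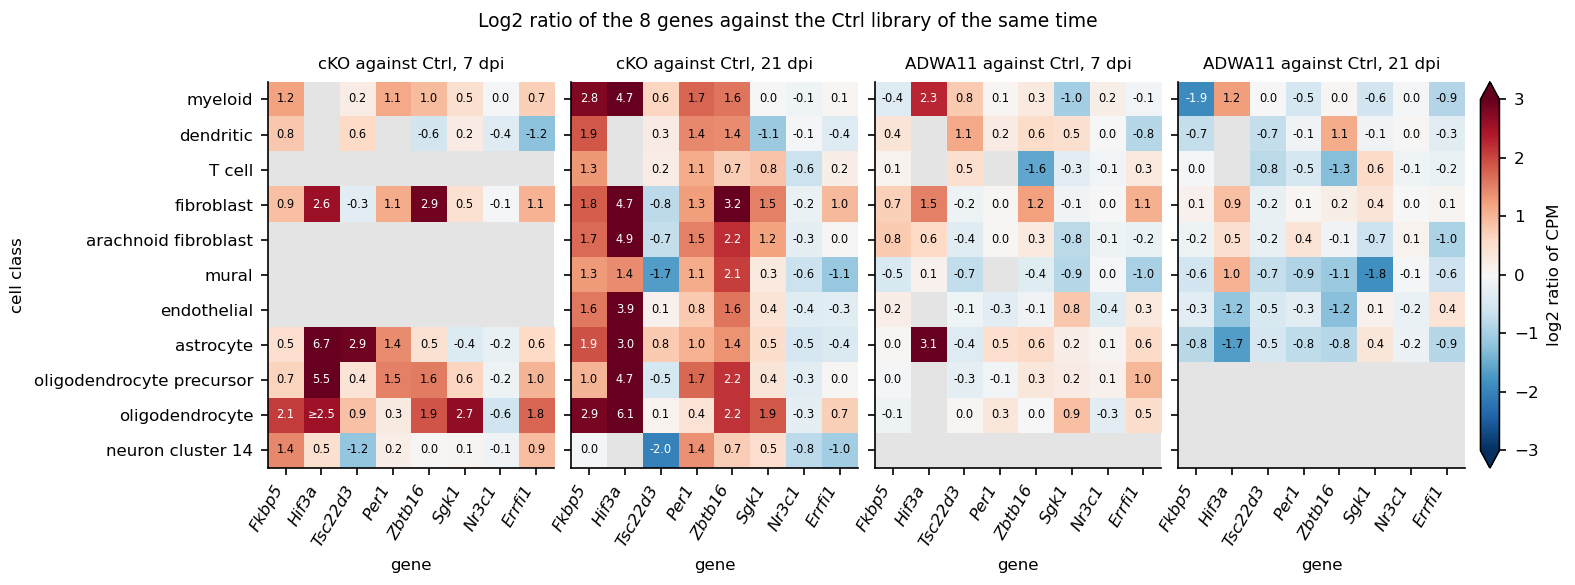
Log2 ratio of CPM for each member (columns) and cell class (rows) in 4 comparisons of cKO or ADWA11 with the Ctrl library of the same day; grey cells had under 50 nuclei or under 20 UMIs, and ≥ marks a bound against 0 UMIs. In 21dpi_cKO the Fkbp5, Hif3a, Per1 and Zbtb16 columns are positive in all filled cells but that of Fkbp5 in neuron cluster 14, and the Nr3c1 column is negative in all 11.

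Genes past 2-fold in nearly every class at 21 dpi were counted in both directions. Of 7242 genes tested in at least 10 of the 11 classes, 4 were at least 2-fold higher in 21dpi_cKO in at least 10 classes: Fkbp5 and the neuronal genes Lrrtm4, Syt1 and Nrg3. At 9 or more classes there were 16, among them Zbtb16 and Per1, the astrocyte transporter gene Slc1a2 and the myelin gene Mobp. In the other direction 16 genes were at least 2-fold lower in at least 10 classes and 32 in at least 9, and the 4 lower in all 11 were the collagen genes Col1a1, Col1a2, Col11a1 and Col12a1. RNA of neural cells thus moved with the members across classes, and collagen RNA moved against them. Syt1, of synaptic vesicles, was at 0.010 to 0.157 UMIs per nucleus in the 10 classes other than neurons in 21dpi_Ctrl and at 0.254 to 0.485 in 21dpi_cKO. In 21dpi_cKO the neuron markers together stood at 4687 CPM in neuron cluster 14, whereas Fkbp5 was 86.1 CPM and Hif3a 4.23 CPM there, below fibroblasts, astrocytes and oligodendrocytes. The 6 oligodendrocyte markers stood at 10880.5 CPM in oligodendrocytes and at 117 to 512 CPM in 9 other classes of that library, while Fkbp5 was 417 CPM in oligodendrocytes and 901 CPM in myeloid nuclei. The 6 astrocyte markers stood at 9179 CPM in astrocytes of 21dpi_cKO and at 188 to 1418 CPM in its 10 other classes, against 113 to 1111 CPM in those of 21dpi_Ctrl. Within the astrocyte class itself they also stood lower in Ctrl, at 4574 CPM in 21dpi_Ctrl and at 2923 CPM in 7dpi_Ctrl against 9986 CPM in 7dpi_cKO, and the part of this in the astrocyte ratios of the members was not tested. Zbtb16 was 354 CPM in neuron cluster 14 and 41.1 CPM in myeloid nuclei. The part of neural RNA in the members' values was not tested. In 7dpi_cKO, 1 gene was at least 2-fold higher in all 7 classes, Oasl2, an interferon-induced gene, and Fkbp5 was in 3.

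Each library held 1 female and 1 male mouse, so the level in each mouse could be read. A nucleus was taken as female when it held Xist without any Y-linked transcript, and as male in the opposite case. Sex and mouse cannot be told apart within a library. In 21dpi_cKO 4 of the 8 members, Fkbp5, Hif3a, Per1 and Sgk1, were at least 2-fold higher in the female than in the male mouse in most of the classes tested. Fkbp5 in myeloid nuclei stood at 1505 CPM in female and 227 CPM in male nuclei, a log2 ratio of 2.73 (2.64 to 2.82). Fibroblasts had 1327 CPM in female and 357 CPM in male nuclei, and astrocytes 499.9 CPM in female and 131 CPM in male nuclei. Oligodendrocytes had 646 CPM in female and 183 CPM in male nuclei. The female was thus at least 2-fold above the male in 6 of 7 classes compared and above it in all 7, the narrowest being neuron cluster 14 with 88.2 against 50.8 CPM.

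The 7dpi_cKO library had the same order for Fkbp5. Its female mouse was at least 2-fold above its male in 6 of 6 classes, with 434 against 169 CPM in myeloid nuclei and 269 against 68.3 CPM in oligodendrocytes. In the WT libraries at 7 dpi no class reached 2-fold for Fkbp5, with 154 against 129 CPM in myeloid nuclei of 7dpi_Ctrl and 118 against 90.5 CPM in those of 7dpi_ADWA11. At 21 dpi the female of 21dpi_Ctrl was above the male in 7 of 7 classes, 2 of them at least 2-fold, with 147 against 104 CPM in myeloid nuclei and 308 against 128 CPM in fibroblasts. In 21dpi_ADWA11 the order was turned: the male was above the female in 7 of 7 classes, 4 of them at least 2-fold, with 13.2 against 39.7 CPM in female and male myeloid nuclei and 132 against 308 CPM in fibroblasts. The order of the mice was therefore not the same in every library.

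The other induced members divided into Hif3a, Per1 and Sgk1, at least 2-fold higher in the female of 21dpi_cKO than in the male in most of the classes tested, and Zbtb16, Tsc22d3 and Errfi1, past 2-fold in fewer. At any size the female was above the male in 6 or 7 of 7 classes for Hif3a, Per1, Sgk1 and Tsc22d3, in 5 for Zbtb16 and in 4 for Errfi1. Hif3a was at least 2-fold higher in the female in 5 of 5 classes tested, with 205 against 18.5 CPM in fibroblasts, 279.9 against 94.1 CPM in astrocytes and 291 against 56.5 CPM in oligodendrocytes. A class was tested with 20 UMIs over both mice, so it could enter through the female counts alone. Per1 was at least 2-fold higher in the female in 6 of 7 classes, with 62.4 against 15.7 CPM in myeloid nuclei and 69.7 against 24.5 CPM in astrocytes. Sgk1 was so in 4 of 7, with 551 against 91.5 CPM in oligodendrocytes. Zbtb16 differed from these. It was at least 2-fold higher in 2 of 7 classes, at 1208 against 527 CPM in fibroblasts and 57.2 against 16.9 CPM in myeloid nuclei, but stood at 250.3 against 255 CPM in astrocytes and 176 against 196 CPM in T cells. Tsc22d3 was at least 2-fold higher in the female in 2 of 6 classes tested, myeloid nuclei (92.6 against 24.8 CPM) and T cells, and Errfi1 in 3 of 7, fibroblasts (289 against 139.6 CPM), astrocytes and oligodendrocytes, around a median log2 ratio of 0.03. Nr3c1 was lower in the female in all 7 classes (median log2 ratio -0.32), by less than 2-fold in each.

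Over all members, 28 of 53 pairs of a member and a class in 21dpi_cKO were at least 2-fold higher in the female than in the male (52.8%), where 4.56% of all pairs of gene and class were, and 0 pairs were at least 2-fold lower, against 3.32% of all pairs. This contrast between mice of one library is not the one the members were chosen on. The same nuclei gave the 21dpi_cKO values of the rule, however, so nothing is read from the 21dpi_cKO count. In 7dpi_cKO the counts were 24 of 46 higher (52.2%, against 6.13%) and 0 lower (against 3.05%). A pair was tested on UMIs summed over both mice, so it could enter through the female counts alone. The female of 7dpi_cKO gave 6325 nuclei and its male 2329. Hif3a in fibroblasts, for example, stood at 25.7 CPM in this female and 1.25 CPM in its male. No count with the UMI minimum met in the male alone was made, so the part of such pairs in the 52.2% is not known. The WT libraries had smaller shares. In 7dpi_Ctrl 2 of 41 pairs were higher and 1 lower (against 2.67% and 2.62% of all pairs), and in 7dpi_ADWA11 2 of 48 were higher and 3 lower (against 2.84% and 2.02%). In 21dpi_Ctrl 7 of 45 were higher (15.6%, against 3.37%) and 0 lower (against 1.71%). In 21dpi_ADWA11 1 of 50 was higher (against 2.46%) and 11 lower (22%, against 2.98%).

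Across all genes, the female and male mice of 21dpi_cKO were told apart over classes by few genes. Of 8247 genes tested in at least 6 of 7 classes, 4 were at least 2-fold higher in the female in at least 6: Xist and its antisense gene Tsix, which follow from how the nuclei were sorted into mice, and Per1 and Fkbp5. The rule used Fkbp5 in myeloid nuclei of this library, so its place here is a description. The 4 at least 2-fold lower in the female in at least 6 were the Y-linked Kdm5d, Eif2s3y, Uty and Ddx3y, which also follow from the sorting. In 7dpi_cKO, of 6940 genes tested in all 6 classes, those at least 2-fold higher in the female in all 6 were Fkbp5, Tsix and Xist, and the 3 lower in all 6 were Eif2s3y, Uty and Ddx3y. There 16 genes were higher in at least 4 of the 6 classes. Beside Hif3a and Zbtb16 they included, chosen after their values were seen, the leukocyte genes Lair1, Dock2, Havcr2 and Ly86. The part of immune cell RNA in the values of this female was not tested. The next 6 genes in 21dpi_cKO, higher in 5 of 7 classes, were Hif3a and, chosen after their values were seen, Poln, E230001N04Rik, Mt1, Ddit4 and Arrdc2, of which the last 3 are also known to be induced by glucocorticoids.

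Each mouse of 21dpi_cKO was also set against the mouse of its own sex in 21dpi_Ctrl, in the 5 classes with at least 50 nuclei of each. For Fkbp5 in myeloid nuclei the log2 ratio was 3.36 between the females and 1.13 between the males. In fibroblasts it was 2.11 and 1.48, and for Hif3a in fibroblasts 5.49 and 2.61. Fkbp5 was at least 2-fold higher within both sexes in 4 of 5 classes compared, the exception being T cells, where the male value was -0.34. Zbtb16 was so in 3 of 5, fibroblasts, arachnoid fibroblasts and astrocytes, and Per1 in 0 of 5. Sgk1 was lower between the males in myeloid nuclei (-0.74), astrocytes (-0.84) and arachnoid fibroblasts, and higher between the females in all 5. At 7 dpi Fkbp5 was at least 2-fold higher within both sexes in 0 of 4 classes, and in astrocytes the females gave 1.33 and the males -1.39. Among the 12 mice the female of 21dpi_cKO ranked first for Fkbp5, Hif3a and Per1 in myeloid, fibroblast and astrocyte nuclei, and for Zbtb16 in the first 2 of these classes.

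In myeloid nuclei of 21dpi_cKO the higher Fkbp5 was spread over nuclei and did not come from a few of them. With each nucleus thinned to 2000 UMIs, 85.7% of myeloid nuclei of the 21dpi_cKO female held a Fkbp5 UMI (exact 95% interval 83.2 to 87.9) against 35.8% in its male. In 21dpi_Ctrl the shares were 22.6% and 16.2%. Without thinning, the same 4 shares were 93.98%, 58.9%, 36.5% and 29.1%, at medians of 5234, 5372, 4292 and 4433 UMIs per nucleus, and 68, 38, 178 and 77 shallower nuclei were left out. No class is known to lack Fkbp5. The lowest share in 21dpi_cKO was in neuron cluster 14, at 10.7% of its nuclei with at least 2000 UMIs. The median depth of the whole cluster was 1542 UMIs, so most of its nuclei were left out. For Hif3a in fibroblasts of 21dpi_cKO the thinned shares were 33.5% in the female and 6.03% in the male, against 0.939% in all fibroblasts of 21dpi_Ctrl and 0.714% in neuron cluster 14 of 21dpi_cKO.

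The make-up of the classes differed between libraries, so Fkbp5 was also read within sub-clusters. Myeloid sub-cluster 0, whose leading genes include the microglial gene Siglech beside the neuronal genes Nrg3 and Syt1, held 1401 of the 2163 myeloid nuclei of 21dpi_cKO and 1152 of the 3017 of 21dpi_Ctrl. Within it the log2 ratio of Fkbp5 was 2.46, and within sub-cluster 2, led by Dach1, it was 3.34. Sub-cluster 4, led by the border macrophage genes Cd163 and Mrc1, gave 2.79, and sub-cluster 6, led by the dividing-cell genes Top2a and Kif11, 1.03. All 4 ratios were at least 2-fold in the same direction. At 7 dpi the make-up differed more, with 1676 nuclei of 7dpi_cKO and 401 of 7dpi_Ctrl in sub-cluster 0 and 261 and 1548 in sub-cluster 2. There the ratio of Fkbp5 was 1.19 in sub-cluster 0 and 2.32 in sub-cluster 4, but under 2-fold in sub-clusters 2, 6 and 8 (0.81, 0.48 and 0.84), and with the same sub-cluster weights in both libraries it was 1.06. In sub-cluster 0 the female and male of 21dpi_cKO stood at 1462 and 238 CPM, and those of 21dpi_Ctrl at 175 and 128 CPM. Fibroblasts were less alike, since sub-cluster 6 held 308 of 475 fibroblasts of 21dpi_cKO and 0 of 3601 in 21dpi_Ctrl. Its leading genes include Gabrg3, Ebf3 and Lingo2. Against the other fibroblasts its most raised marker sets were those of oligodendrocytes and neurons, with 4 markers each. The 21dpi_cKO fibroblast levels thus rest mostly on nuclei with no counterpart in 21dpi_Ctrl, and the part of neural RNA in them was not tested. In fibroblast sub-clusters present in both libraries the log2 ratio of Fkbp5 was 1.81 in sub-cluster 0 and 2.25 in sub-cluster 2.

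The ADWA11 libraries share their Ctrl libraries with the cKO comparisons and showed a different picture. At 21 dpi, 3 of 62 member pairs were at least 2-fold higher than in 21dpi_Ctrl (4.84%, against 4.23% of all pairs) and 7 were lower (11.3%, against 5.5%). Within each sex more pairs passed 2-fold in either direction, 16 of 48 between the females (33.3%, against 9.33% of all pairs) and 13 of 50 between the males (26%, against 12%). Fkbp5 was below 21dpi_Ctrl in 7 of 8 classes and at least 2-fold lower in myeloid nuclei, with a log2 ratio of -1.91 (-2.02 to -1.80). The direction turned between the mice: between the females Fkbp5 was below Ctrl in 7 of 7 classes compared, and between the males it was above Ctrl in 6 of 7, myeloid nuclei being the exception at -1.39. Tsc22d3 was below 21dpi_Ctrl in all 8 classes, by less than 2-fold in each, but between the males it was above in 4 of 7. Zbtb16 was at least 2-fold lower in 3 classes, endothelial nuclei (103 against 245 CPM), mural nuclei and T cells, and at least 2-fold higher in dendritic nuclei (50.9 against 23.5 CPM). Between the males alone the endothelial log2 ratio of Zbtb16 turned, to 0.94. At 7 dpi, 6 of 73 member pairs were higher (8.22%, against 6.19%) and 2 lower (2.74%, against 4.17%), and Fkbp5 passed 2-fold in 0 of 10 classes. The largest ratio of Fkbp5 at 7 dpi was in arachnoid fibroblasts, at 0.79 (0.56 to 1.02). Myeloid nuclei of the ADWA11 libraries also lay in other sub-clusters than those of Ctrl: 3449 of the 21dpi_ADWA11 nuclei were in sub-cluster 1, led by the antigen presentation gene Ciita, where Fkbp5 was 31.6 CPM in 21dpi_ADWA11 and 66.1 CPM in 21dpi_Ctrl.

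Between 7 and 21 dpi the members were counted in each arm. In the Ctrl libraries 20 of 80 pairs were at least 2-fold higher at 21 dpi (25%, against 11.5% of all pairs) and 2 were lower (2.5%, against 5.44%). Tsc22d3 accounted for 9 of the 20 and was above 7dpi_Ctrl in all 11 classes, with a median log2 ratio of 1.84. Fibroblasts showed it with 6047 UMIs at 21 dpi, a log2 ratio of 1.84 (1.74 to 1.94). With the same sub-cluster weights on both days, however, the fibroblast ratios in Ctrl were 0.15 for Tsc22d3, 0.12 for Fkbp5 and -0.75 for Zbtb16, so that 0 of these 3 stayed at least 2-fold higher. Errfi1 was at least 2-fold higher in 4 classes and Fkbp5 in 3, fibroblasts, arachnoid fibroblasts and neuron cluster 14. With clusters from log-normalised counts the ratios in arachnoid fibroblasts turned, to -0.86 for Tsc22d3 and -0.17 for Fkbp5. In the cKO libraries 16 of 54 pairs were higher at 21 dpi (29.6%, against 6.29%) and 0 lower (against 5.93%). Of the 16, Fkbp5, Hif3a and Tsc22d3 had 4 each. The members were chosen on 21dpi_cKO values that enter this count, so nothing is read from it. With the same weights the fibroblast ratio of Tsc22d3 was -0.035 in the cKO and -0.19 in the ADWA11 libraries, against 1.40 and 1.78 over all nuclei. These weighted values leave out sub-clusters with few nuclei on either day. Among them was sub-cluster 1, with 133 nuclei in 7dpi_cKO and 4 in 21dpi_cKO, and 1244 in 7dpi_ADWA11 and 12 in 21dpi_ADWA11. In cKO sub-cluster 6, with 5 and 308 nuclei, was also left out. In the ADWA11 libraries 8 of 59 were higher (13.6%, against 9.86%) and 4 lower (6.78%, against 7.26%). Tsc22d3 had 5 of those 8, and Fkbp5 was at least 2-fold lower at 21 dpi in 2 classes, myeloid nuclei and astrocytes. Tsc22d3 was thus the member with the most classes past 2-fold between the days in Ctrl and ADWA11, with sub-clusters weighted as they were found.

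Wider lists of the pathway and of genes that can move with it were counted in the same way, with a pair again being a gene and a class. Of all such pairs in 21dpi_cKO against 21dpi_Ctrl, 6.83% were at least 2-fold higher and 7.77% lower. Of 25 other genes that glucocorticoids induce, 35 of 189 pairs were higher and 19 lower (18.5% and 10.1%). Map3k6, a stress kinase gene, was higher in 4 of 6 classes tested and Klf15, a metabolic transcription factor gene, in 4 of 5, whereas Lcn2, the iron-carrier gene of reactive glia, was lower in 7 of 10 (median log2 ratio -1.74) and Anxa1, of the resolution of inflammation, in 4 of 10. Of 14 genes of the receptor and the handling of hormone, 1 of 135 pairs was higher and 13 were lower (0.741% and 9.63%). Abcb1a, which encodes a pump that exports steroids at the blood-brain barrier, was lower in 6 of 10 classes. Of 16 genes that glucocorticoids repress, 16 of 69 pairs were higher and 22 lower (23.2% and 31.9%). They did not move as 1 group: the collagenase gene Mmp13 was lower in 10 of 10 classes (median log2 ratio -3.60), while Vcam1, an adhesion molecule, was higher in 5 and lower in 1 of 9, and Il1b, a cytokine, higher in 3 of 5. The 18 other clock genes had 12 pairs higher and 10 lower of 160 (7.50% and 6.25%), near the shares of all pairs, with Cry1 higher in 4 of 11 classes and Bhlhe40 lower in 4 of 10. The 15 immediate early genes had 9 higher and 22 lower of 91 (9.89% and 24.2%), led by Atf3, lower in 6 of 7. The 15 hypoxia genes had 10 higher and 11 lower of 129 (7.75% and 8.53%), also near them.

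At 7 dpi, in 7dpi_cKO against 7dpi_Ctrl, 9.12% of all pairs were higher and 9.04% lower. The other induced genes had 24 of 107 pairs higher and 13 lower (22.4% and 12.1%), with Ddit4, an inhibitor of growth signalling, higher in 3 of 5 classes. The hypoxia genes, which Hif3a belongs with by name, had 27 of 83 higher and 3 lower (32.5% and 3.61%), with the glucose transporter gene Slc2a1 and the kinase gene Pdk1 each higher in 4 of 7 classes. Clock genes had 20 of 105 higher and 6 lower (19.05% and 5.71%), and immediate early genes 16 of 67 higher and 13 lower (23.9% and 19.4%). Repressed genes had 12 of 33 higher and 5 lower (36.4% and 15.2%), and receptor and handling genes 4 of 82 in each direction (4.88% and 4.88%). Between the days in Ctrl, 77 of 164 pairs of the other induced genes were higher at 21 dpi and 8 lower (47.0% and 4.88%). Of the repressed genes, 28 of 56 pairs were higher and 2 lower (50% and 3.57%). Of all pairs, 11.5% were higher and 5.44% lower. Mt1, a metallothionein gene induced by both zinc and glucocorticoid, was higher in 11 of 11 classes and Klf9 in 7 of 11.

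The contrast between mice gave another order of the same lists. In 21dpi_cKO the other induced genes were at least 2-fold higher in the female in 37 of 109 pairs and lower in 2, where 4.56% of all pairs were higher and 3.32% lower. The repressed genes were higher in 5 of 29 pairs and lower in 14. Receptor and handling genes had 1 higher and 1 lower of 84, clock genes 11 and 4 of 99, immediate early genes 6 and 5 of 43, and hypoxia genes 8 and 4 of 76. In 7dpi_cKO, where the shares of all pairs were 6.13% and 3.05%, the other induced genes were higher in 13 of 70 pairs and lower in 1, the repressed genes higher in 3 of 17 and lower in 4, and hypoxia genes higher in 3 of 67 (4.48%, near the share of all pairs) and lower in 1. Receptor and handling genes had 0 of 65 past 2-fold in either direction there, clock genes 12 higher and 4 lower of 85, and immediate early genes 5 and 3 of 32.

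**Figure D4:**
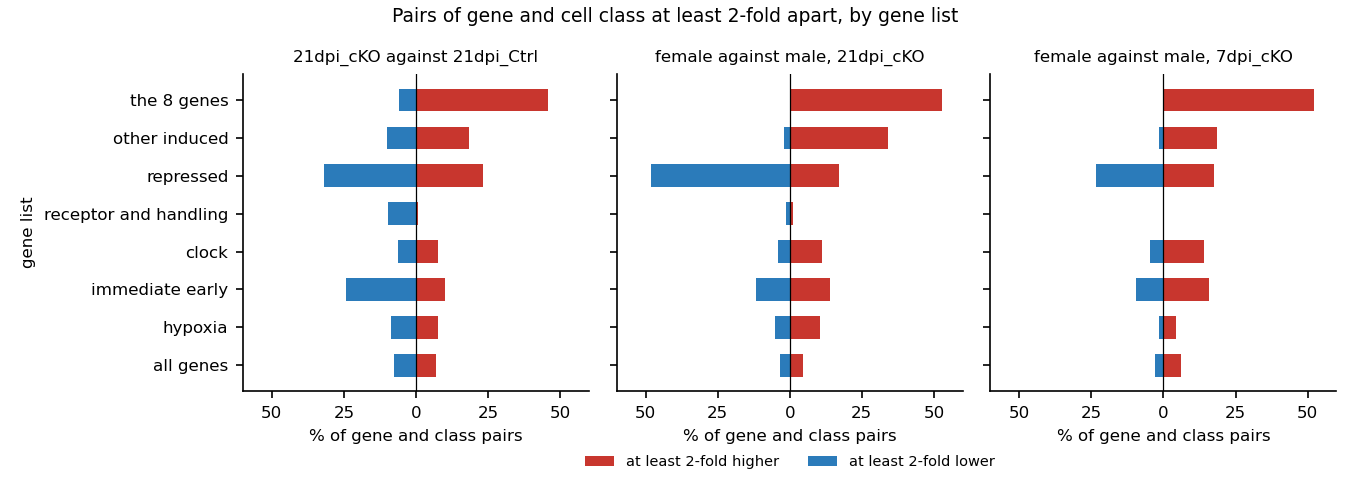
Share of pairs of gene and class at least 2-fold higher (right) or lower (left), in percent of the pairs tested, for the 8 members, 6 wider lists and all genes, in 21dpi_cKO against 21dpi_Ctrl and between the mice of each cKO library. In the female against male comparison the members have the longest bar to the right in both cKO libraries. In 7dpi_cKO the other induced genes (18.6%) lie near the repressed (17.6%, 3 of 17 pairs), immediate early (15.6%) and clock genes (14.1%). The shares of 7dpi_cKO against 7dpi_Ctrl are not drawn.

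The genes patterned most like Fkbp5 were sought over 24 values, 4 classes in 6 libraries, each centred within its class, among 14631 genes with at least 500 UMIs. Per1 was the closest, with Pearson's r = 0.890, ahead of Gm22146, Dclre1b, Rogdi and Rbm26 (r = 0.841, 0.819, 0.818 and 0.805). Among the other members Hif3a ranked 75 with r = 0.686, Zbtb16 141 with r = 0.646, and Nr3c1 12192 with r = -0.237. For Hif3a the closest were Mtx3, Folh1, Gm29260, Per1 and Aldoc (r = 0.909, 0.890, 0.889, 0.862 and 0.856). The values share libraries and their depth, so these coefficients describe the libraries and carry no p.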

How the data were processed

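Nuclei from 6 libraries (1 per group; 10x Genomics 3' v3.1, nuclei sorted on DAPI) were analysed. The authors aligned the reads to mm10 with Cell Ranger and deposited raw UMI counts per gene and nucleus; the version is 7.1.0 in the submitters' processing notes and 7.2.0 in the file headers. Nuclei in the lowest or highest 2.5% of UMIs or genes, or the highest 2.5% of mitochondrial share, were removed, and doublets were scored with simulated pairs (5825 calls, and 751 nuclei in 2 sub-clusters of mostly called doublets removed). Nuclei were clustered with Seurat 5.3.0 and sctransform 0.4.2 in R 4.3.3 (3000 variable genes, 30 components, resolution 0.5), and clusters were named from at least 3 markers. Counts outside mitochondrial genes were summed per class and library in Python 3.11.15 (NumPy 2.4.6, SciPy 1.17.1, pandas 2.3.3, scikit-learn 1.9.0, matplotlib 3.10.9). Gene positions are of GENCODE M21.

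Levels have exact Poisson and ratios exact conditional binomial 95% intervals, which cover counting error only. A ratio entered a count with at least 50 nuclei in each library and 20 UMIs over both, and passed at 2-fold; ratios against 0 UMIs used a floor of 3 counts. With 1 library per group no test was made between groups. The members, the gene lists and the comparisons were chosen with earlier results of these data known. Named were all 8 members, from each list at most 4 genes past 2-fold in the most classes of a comparison, and the 5 genes most like Fkbp5 and Hif3a. Alternatives were TMM factors (edgeR 4.0.16), the mean CPM per nucleus, log-normalised clustering, no called doublets, thinning to 2000 UMIs, each sex alone, leaving out the 5 nuclei with most UMIs of a gene, other count minimums, equal sub-cluster weights and, added after seeing the data, the 2 fibroblast classes joined, and several of these choices applied to further counts. The same sub-cluster weights covered only fibroblast and myeloid sub-clusters with at least 20 nuclei in both libraries of a comparison. The scripts recovered known ratios in simulated counts.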

Additional observations from a re-analysis of the deposited data

Results flagged for a closer look

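The first set of values concerns pairs of mice whose ratios ran in opposite directions by at least 2-fold in a class. None of these differences was tested, and each arm is 1 mouse. For ADWA11 against Ctrl at 21 dpi, Fkbp5 in fibroblasts had a log2 ratio of -1.22 between the females and 1.27 between the males, and in arachnoid fibroblasts -1.20 and 1.01. Zbtb16, the PLZF gene, gave -2.11 between the females and 1.61 between the males in fibroblasts, and -2.00 and 1.69 in arachnoid fibroblasts. For Zbtb16 in arachnoid fibroblasts between 7 and 21 dpi under ADWA11 the ratios were -1.71 in females and 1.43 in males. For cKO against Ctrl at 7 dpi, Fkbp5 in astrocytes had a log2 ratio of 1.33 between the females and -1.39 between the males.

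The second concerns the same treatment on different days. Hif3a in astrocytes was lower with ADWA11 than in Ctrl at 21 dpi, with a log2 ratio of -1.68, and higher at 7 dpi, with 3.07. The 21 dpi values were 6.97 and 22.3 CPM and the 7 dpi values 13.3 and 1.58 CPM, the last from 2 UMIs. This difference was not tested either.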

How the results depend on the processing

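No paired analysis of labelled replicates was possible because the labels give no replicate numbers and each group is 1 library. The mice told apart by sex were compared within each sex, with 1 mouse on each side. Over all 7 comparisons, 133 ratios of a member in a class passed 2-fold. Of those that could be computed again, 129 of 133 stayed past it in the same direction with TMM factors, 122 of 133 with the mean CPM per nucleus, 105 of 118 with log-normalised clustering, 109 of 115 without called doublets, 82 of 94 after thinning to 2000 UMIs, 88 of 96 in female and 36 of 60 in male nuclei, 108 of 118 without the 5 highest nuclei, 25 of 37 with the same sub-cluster weights and 18 of 22 with the fibroblast classes joined. Dendritic nuclei have no value under log-normalised clustering.

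Some log2 ratios changed sign. In male nuclei these were Fkbp5 in T cells (-0.34) and Sgk1 in arachnoid fibroblasts (-0.086) for cKO against Ctrl at 21 dpi, Zbtb16 in oligodendrocyte precursors for the same at 7 dpi (-0.25) and Zbtb16 in endothelial nuclei for ADWA11 at 21 dpi (0.94). In female nuclei it was Zbtb16 in fibroblasts over time under ADWA11 (-0.98). With the same sub-cluster weights they were Hif3a in myeloid nuclei for ADWA11 at 7 dpi (-0.79) and, in fibroblasts over time, Zbtb16 in Ctrl (-0.75) and ADWA11 (-1.69) and Tsc22d3 in cKO (-0.035) and ADWA11 (-0.19). Under log-normalised clustering they were, in arachnoid fibroblasts over time, Fkbp5 (-0.17) and Tsc22d3 (-0.86) in Ctrl and Tsc22d3 in ADWA11 (-0.20). The mean CPM per nucleus turned Tsc22d3 in neuron cluster 14 for cKO at 7 dpi (1.51), and thinning turned Tsc22d3 in dendritic nuclei for ADWA11 at 7 dpi (-0.21). The cause of these changes was not tested.

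The number of member pairs past 2-fold moved by over 1.5 times in male nuclei, to 12 of 35 from 44 of 85 for cKO against Ctrl at 21 dpi, to 5 of 25 from 21 of 53 at 7 dpi, and over time to 12 of 39 in Ctrl and 9 of 37 in cKO (30.8% and 24.3%, against 16.9% and 14.3% of all pairs in male nuclei), where fewer classes held enough nuclei. It moved to 16 of 48 in female nuclei for ADWA11 at 21 dpi, to 9 of 26 after thinning for cKO at 7 dpi and to 13 of 64 without the 5 highest nuclei for ADWA11 at 7 dpi. Between female and male nuclei, the count became 14 of 35 in 7dpi_cKO after thinning, 5 (mean CPM) or 1 (thinned) in 7dpi_Ctrl, 2 (mean CPM), 0 (thinned) or 3 (without the 5 highest nuclei) in 7dpi_ADWA11, and 11 in 21dpi_Ctrl without the 5 highest nuclei. In male nuclei at 21 dpi, 10 of 77 pairs of the other induced list were higher and 6 of 33 of the repressed list lower in cKO (6.4% of all pairs were higher and 6.13% lower). The share of all genes past 2-fold was smaller at a higher UMI minimum: without a minimum and with at least 100 UMIs it was 32.3% and 8.32% for cKO at 21 dpi, 39.8% and 10.7% at 7 dpi, 25.8% and 5.19% for ADWA11 at 21 dpi, 27.7% and 5.16% at 7 dpi, and over time 32.7% and 10.3% in Ctrl, 30.0035% and 5.96% in cKO and 31.3% and 11.3% in ADWA11.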
